A study of Mus musculus with 2 samples.

Results

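Gene deserts are long stretches of the genome that hold no protein-coding gene. Gene desert regions were taken here as open chromatin regions that were found in both replicates, overlapped no annotated gene body of any type, and lay over 200 kb from the start of every annotated protein-coding transcript of the mouse genome (mm10). There were 9604 of them among 136714 shared regions, which is 7.02% (exact binomial 95% interval 6.89 to 7.16). A shared region was a merged set of peaks that overlapped by at least 1 bp and included a peak of each replicate. DNase-seq, which maps DNA that the enzyme DNase I can reach in nuclei, was applied to hindbrain tissue from newborn mice (postnatal day 0) of strain B6NCrl, a pool of both sexes. The study held 1 group of 2 biological replicates and no other strain, genotype, age or treatment, so no test between groups could be made. Per the labels, the replicates were different tissue samples under the same donor entry, and the number of animals in each was not given in the sources used here. The tissue was whole hindbrain, a mixture of cell types, so a weak region in all cells and a strong region in few cells cannot be told apart.

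Open chromatin far from genes is usually studied as candidate distal regulatory DNA: enhancers, which raise the transcription of a gene on the same chromosome, and sites of CTCF, a zinc-finger protein that shapes chromosome loops. Deserts beside developmental regulators are known to hold enhancers that act over long distances, and in neural tissue many enhancers are bound by basic helix-loop-helix, homeodomain, SOX, ZIC, RFX and nuclear factor I (NFI) proteins. The gene nearest to a region need not be the gene it acts on, and nearest genes are given below as positions on the map.

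The sequences of 10 gene desert regions are shown because later results turn on them: the 4 highest-ranked, the best-ranked examples of the motifs with the largest excess over flanking DNA, and the region farthest from a protein-coding gene. Rank was the mean over replicates of the percentile of the peak score within its own list. Each window is the 200 bp around the centre of a region, 5′ to 3′ on the plus strand of the RefSeq GRCm38.p6 assembly (mm10). Capitals mark a match to the CTCF, NFI full site, RFX X-box or ZNF143-type consensus, to CAGCAGG (the ZIC letters) or to CAGCTG (an E-box, the site of basic helix-loop-helix proteins); in the examples of 1 motif only that motif is in capitals. Both strands were searched, and a match is a description of letters and not a binding site.

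The highest-ranked region lay at chr12:29291061-29291260, between Eipr1 and Myt1l, and held a ZNF143-type match, a motif best known from promoters. The second lay at chr1:7398001-7398200 between Pcmtd1 and Sntg1, the third at chr7:58399091-58399290 on the side of Atp10a, and the next at chr13:104518401-104518600 between Adamts6 and Srek1ip1. The CTCF examples were at chr13:84758601-84758800 and chr2:21917911-21918110. The NFI full site example was at chr15:62903111-62903310, the RFX X-box example at chr2:21918381-21918580 and the ZIC example at chr13:26155141-26155340. The farthest region was at chr14:91108681-91108880. The windows of rank 2 and rank 3 and the farthest window held none of these matches. The ZIC letters lie inside the CTCF match of the second CTCF example.
Rank 1, Myt1l side: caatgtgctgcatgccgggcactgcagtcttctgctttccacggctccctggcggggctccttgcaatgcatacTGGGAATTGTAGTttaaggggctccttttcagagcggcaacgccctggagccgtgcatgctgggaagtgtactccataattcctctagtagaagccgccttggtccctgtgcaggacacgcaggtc
Rank 2, Pcmtd1 side: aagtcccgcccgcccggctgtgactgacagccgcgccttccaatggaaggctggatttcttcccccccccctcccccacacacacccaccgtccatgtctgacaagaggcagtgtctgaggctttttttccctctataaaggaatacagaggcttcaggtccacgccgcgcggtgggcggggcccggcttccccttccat
Rank 3, Atp10a side: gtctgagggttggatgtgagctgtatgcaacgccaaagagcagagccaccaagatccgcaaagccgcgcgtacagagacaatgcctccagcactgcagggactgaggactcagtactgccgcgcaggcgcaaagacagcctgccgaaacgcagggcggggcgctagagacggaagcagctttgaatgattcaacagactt
Rank 4, Adamts6 side, E-box: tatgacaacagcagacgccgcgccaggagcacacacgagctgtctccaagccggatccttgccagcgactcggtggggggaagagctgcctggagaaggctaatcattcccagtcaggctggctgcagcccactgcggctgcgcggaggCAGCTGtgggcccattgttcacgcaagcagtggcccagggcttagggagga
CTCF, Ccnh side: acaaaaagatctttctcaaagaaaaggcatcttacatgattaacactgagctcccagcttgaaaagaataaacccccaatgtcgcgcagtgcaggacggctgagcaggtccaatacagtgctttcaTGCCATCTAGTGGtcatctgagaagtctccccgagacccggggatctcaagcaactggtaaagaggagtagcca
CTCF, Myo3a side: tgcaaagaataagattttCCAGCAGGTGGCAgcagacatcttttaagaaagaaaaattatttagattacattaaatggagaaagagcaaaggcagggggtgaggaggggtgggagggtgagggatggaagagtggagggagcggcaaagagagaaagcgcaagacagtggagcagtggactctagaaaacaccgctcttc
NFI full site, Gsdmc side: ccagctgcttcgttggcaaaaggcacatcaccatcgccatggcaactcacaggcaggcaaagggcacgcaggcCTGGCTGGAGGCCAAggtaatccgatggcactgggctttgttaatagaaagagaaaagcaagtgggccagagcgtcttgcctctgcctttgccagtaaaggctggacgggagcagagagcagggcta
RFX X-box, Myo3a side: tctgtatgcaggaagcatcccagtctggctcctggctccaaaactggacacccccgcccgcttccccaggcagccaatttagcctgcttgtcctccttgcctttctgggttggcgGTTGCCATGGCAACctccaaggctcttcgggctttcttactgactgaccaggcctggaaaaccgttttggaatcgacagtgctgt
ZIC, Hdgfl1 side: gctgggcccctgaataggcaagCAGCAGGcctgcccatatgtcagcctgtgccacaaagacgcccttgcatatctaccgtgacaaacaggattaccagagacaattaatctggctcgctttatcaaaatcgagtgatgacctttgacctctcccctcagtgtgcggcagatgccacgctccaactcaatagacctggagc
Farthest, Pcdh20 side: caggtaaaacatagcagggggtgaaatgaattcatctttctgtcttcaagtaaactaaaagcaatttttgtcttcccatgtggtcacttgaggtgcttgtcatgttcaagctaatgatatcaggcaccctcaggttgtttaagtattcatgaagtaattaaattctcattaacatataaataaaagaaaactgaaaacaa

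The tissue label was checked at the start sites of marker genes. All 16 hindbrain markers, among them En1, En2, Zic1, Atoh1 and Hoxa2, had a peak of each replicate at a start site. None of 5 liver, 4 muscle and 4 blood markers had one in both. Replicate 1 gave 270757 peaks and replicate 2 gave 171790 on chromosomes 1 to 19, X and Y. The tables hold no read counts, so the read depth was unknown, and intervals here cover counting error only.

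Desert sequence made up 20.01% of the assembled sequence, 529.8 Mb in all, and was the most sparsely open part of the genome outside promoters. It held 18.1 gene desert regions per Mb. Intergenic sequence within 200 kb of a protein-coding start held 41.3 shared regions per Mb, and gene bodies held 49.9 per Mb. Those nearer intergenic regions numbered 37123 and serve as the main comparison below. All lay over 500 bp from the start of every annotated transcript of any gene type. Gene desert regions beside a noncoding start were kept, so the classes differ in this.

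The density fell with each step away from genes, and it did so inside the deserts too. Between 200 and 500 kb there were 6815 regions at 22.8 per Mb. Between 500 and 1000 kb there were 2214 at 13.7 per Mb, and beyond 1000 kb there were 575 at 8.40 per Mb. The values before the threshold were 70.6 per Mb up to 10 kb, 45.7 from 10 to 50 kb and 34.7 from 50 to 200 kb. These nearer bands count promoter regions outside gene bodies as well as the nearer intergenic regions. On autosomes alone the 3 desert bands held 26.7, 15.3 and 8.59 regions per Mb. The GC content of the sequence in these bands fell as well, from 43.4% within 10 kb to 37.0% beyond 1000 kb, and its part in the fall of the density was not tested.

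**Figure D1:**
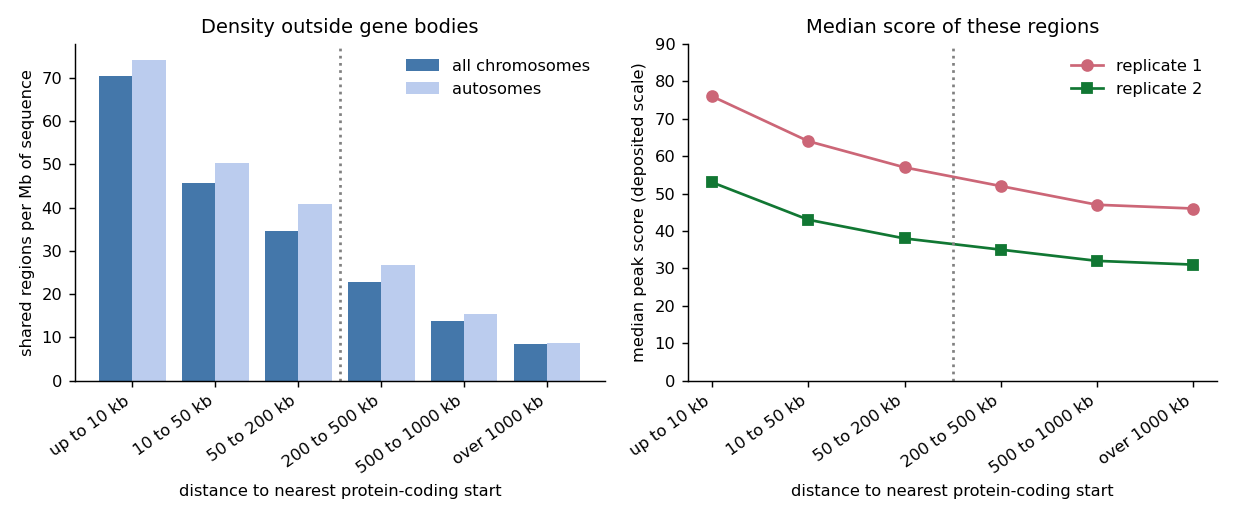
Density of shared regions outside gene bodies (left, regions per Mb of sequence, all chromosomes and autosomes) and their median peak score in each replicate (right), by distance to the nearest protein-coding start; the dotted line is the 200 kb threshold. Density fell from 70.6 to 8.40 per Mb over the 6 bands, and median scores fell from 76 to 46 in replicate 1 and from 53 to 31 in replicate 2. Promoter regions outside gene bodies are included.

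Peaks in deserts were weaker than peaks nearer to genes, in both replicates. The deposited peak score, a whole number whose scaling is not stated, ranks peaks within a library only. Its median over the gene desert regions was 50 in replicate 1 (quartiles 38 and 67, range 7 to 143) and 34 in replicate 2 (quartiles 27 and 46, range 5 to 136). The nearer intergenic regions had medians of 62 and 41. As a percentile of its own list, the median gene desert region stood at 57.9 in replicate 1 and 41.1 in replicate 2, against 70.3 and 54.5 for nearer intergenic regions. The top 10% of the peak list held 4.63% of gene desert regions in replicate 1 (95% interval 4.22 to 5.07) and 2.18% in replicate 2 (1.89 to 2.49). The same shares for nearer intergenic regions were 12.5% and 6.57%.

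The hotspots, wider intervals of enriched cleavage with a q-value each, showed the same order. The hotspot around a gene desert region reached the cap of 100 on the −log10 q scale in 54.96% of cases in replicate 1 and 30.4% in replicate 2. For nearer intergenic regions the shares were 66.4% and 43.9%. Every deposited peak was 150 bp wide, so the width of a merged region reflects only how its peaks overlap. Its median was 170 bp in both classes. The hotspots around gene desert regions had median widths of 307 bp in replicate 1 and 255 bp in replicate 2. For nearer intergenic regions these were 337 and 295 bp.

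The replicates ranked the gene desert regions alike. Spearman's rho between the 2 scores over the 9604 regions was 0.838, given as a description of regions of the same 2 libraries; it was 0.900 over the nearer intergenic regions. The score was higher in replicate 1 in 93.5% of gene desert regions and in 95.9% of nearer intergenic regions.

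**Figure D2:**
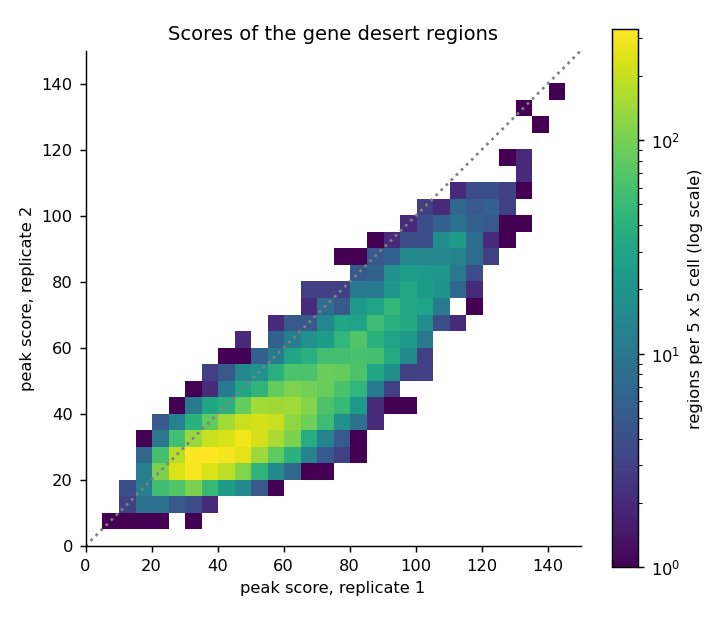
Peak score of the 9604 gene desert regions in replicate 1 (horizontal axis) and replicate 2 (vertical axis), as the number of regions per cell of 5 by 5 score units (log colour scale); the dotted line marks equal scores. Most regions lie below the line (93.5% scored higher in replicate 1), and the median region scored 50 and 34.

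A peak at a desert position was found again in the other replicate less often than a nearer intergenic peak over all scores, and about as often or more often among peaks of like rank. Of 22684 desert peaks of replicate 1, 43.4% (95% interval 42.8 to 44.1) met one in the replicate 2 list. Of 13222 in replicate 2, 76.2% (75.5 to 77.0) met one in replicate 1. The nearer intergenic shares were 50.6% and 82.4%. In 4 bands of the replicate 1 list, each 25% of it, the desert shares from the lowest scores to the highest were 16.2%, 38.2%, 77.6% and 97.8%. The nearer intergenic shares in the same bands were 14.5%, 33.1%, 70.1% and 96.9%. In each band of replicate 1 the share was the higher for desert peaks, while 9404 of the 22684 desert peaks fell in the lowest band. In replicate 2 the order was mixed: the desert shares were 54.6%, 86.4%, 96.6% and 98.9%, and the nearer intergenic shares were 54.7%, 85.8%, 95.8% and 99.0%.

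The distance of the gene desert regions from a protein-coding start had a median of 362 kb (quartiles 266 and 544 kb). Of the 9604 regions, 29.0% lay over 500 kb away, 5.99% over 1000 kb, and 32 regions over 2000 kb. The 466 regions just outside it, from 190 to 200 kb, had median scores of 51 and 35, a median GC content of 47% and a CTCF match in 2.79%. The 445 just inside, from 200 to 210 kb, had medians of 52 and 34, 47.5% GC and a CTCF match in 1.80%.

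Few of the regions were isolated from every kind of annotated gene. A gene of any type, noncoding genes and pseudogenes included, started within 100 kb of 74.8% of gene desert regions and within 10 kb of 13.4%. Only 169 regions (1.76%, 95% interval 1.51 to 2.04) lay within 1 kb of such a start. The nearest gene of any type was a processed pseudogene for 39.9% of the regions and a lincRNA, a long intergenic noncoding RNA, for 29.0%. With starts of all gene types in the definition, 703 regions were left beyond 200 kb. The share within 1 kb of a start was 0.832% in the lowest of 10 equal rank groups of gene desert regions and 3.44% in the highest.

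Gene desert regions stood out from the DNA beside them in base composition. Their 200 bp windows had a median GC content of 46% (quartiles 42 and 50). Windows 1000 bp away and outside hotspots, which could be placed for 9456 regions, had a median of 40%. Nearer intergenic regions had 49.5% and their flanks 45%, so the step from flank to region was similar in size in both classes. The ratio of observed to expected CpG had a median of 0.202 in gene desert regions, 0.135 in their flanks and 0.252 in nearer intergenic regions. Soft-masked bases, which mark repeats, were absent from 52.3% of the gene desert windows, and their median share was 0% against 15.5% in the flanks. Nearer intergenic regions were similar, with none in 48.7% of windows and a median share of 2% against 19% in their flanks. GC content rose with rank, from a median of 42.5% in the lowest of the 10 rank groups to 49.5% in the highest.

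Motif matches in the gene desert regions were searched for 35 consensus motifs on both strands. The CTCF match was rarer in deserts than in nearer regions. It was found in 145 gene desert regions (1.51%, 95% interval 1.28 to 1.77), against 4.09% of nearer intergenic, 3.07% of gene body and 0.699% of promoter regions. In flanks of gene desert regions it was found in 3 of 9456 windows. The desert share depended on which peaks were taken: it was 0.828% for peaks of replicate 1 alone, without replicate 2, and 2.52% for peaks at or above the median score of each list. The lower share held among strong regions and at like GC content. At or above the rank that bounds the top 10% of gene desert regions, 4.57% of gene desert regions (3.34 to 6.09), 9.76% of nearer intergenic (9.15 to 10.4) and 7.96% of gene body regions held a match. Below that rank the shares were 1.17%, 2.37% and 1.96%. In windows of 40 to 45% GC the share was 1.54% of 2728 gene desert regions and 4.91% of nearer intergenic regions. In windows of 45 to 50% GC it was 1.13% of 3175 and 4.08%, and from 50 to 55% it was 1.56% of 1793 and 3.62%; these bands of GC content were chosen after the data were seen.

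Within the deserts the CTCF share rose towards the strongest regions. It was between 0.416% and 1.56% in each of the lowest 8 of the 10 rank groups, 3.54% in the next and 4.58% in the highest. The Ccnh-side region printed above, at rank 10, was the strongest gene desert region with a CTCF match. With 1 mismatch allowed in the consensus the share over all gene desert regions was 6.45%.

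Motifs of neural transcription factors differed from one another in how deserts compared with nearer regions. The NFI full site, by which NFI dimers bind, was found in 156 gene desert regions (1.62%, 1.38 to 1.90), in 2 of 9456 flank windows and in 1.42% of nearer intergenic regions. The NFI core, TTGGCA, which can lie within the full site, was found in 27.1% of gene desert regions, 9.29% of flanks and 21.05% of nearer intergenic regions. The E-box CAGCTG was found in 20.8%, 5.93% and 19.9%. The ZIC letters, CAGCAGG, were found in 11.4%, 3.05% and 12.1%. The RFX X-box, bound by RFX factors of ciliated and neural cells, was found in 1.54%, 0.254% and 1.79%. At like GC content the RFX X-box was rarer in gene desert than in nearer intergenic regions: 1.87% and 2.46% at 40 to 45% GC, 1.42% and 1.98% at 45 to 50%, and 0.502% and 1.49% at 50 to 55%.

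Over all windows the SP and KLF, EBF and ZNF143-type motifs were rarer in gene desert than in nearer intergenic regions. GGGCGG, the SP and KLF motif, was found in 3.05% of gene desert regions (2.72 to 3.41), 7.33% of nearer intergenic regions, 44.0% of promoter regions and 1.07% of desert flanks. The EBF motif CCCNNGGGA was found in 3.20% of gene desert regions, 4.20% of nearer intergenic regions and 1.29% of flanks. These gaps were narrower at like GC content. At 45 to 50% GC, GGGCGG was found in 2.24% of gene desert and 3.12% of nearer intergenic regions, and the EBF motif in 3.34% and 3.45%. The ZNF143-type motif was searched after the sequence of the highest-ranked region had been seen. It was found in 13 gene desert regions (0.135%), 0.159% of desert flanks, 0.377% of nearer intergenic and 2.61% of promoter regions. It was thus no more frequent in gene desert regions than in their flanks.

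Of the motifs in at least 1% of gene desert regions, the SRF motif, AGATAA (the letters of GATA factors) and ATTGTT (a short SOX core) had the lowest share relative to the flanks. They were found in 1.02%, 10.4% and 11.8% of gene desert regions and in 1.40%, 14.3% and 15.7% of flanks. The flanks are richer in A and T, and at 45 to 50% GC the shares of AGATAA were 9.86% in gene desert regions and 9.48% in flanks, and the short SOX core shares were 10.8% and 10.1%. The difference from flanks was wider at like GC content for TAATTA, a homeodomain core chosen here after its values were seen. Over all windows TAATTA was found in 10.8% of gene desert regions and 8.35% of flanks. At 45 to 50% GC it was found in 9.17% of gene desert regions, 2.70% of flanks and 6.86% of nearer intergenic regions. In the same GC band the NFI core was found in 27.6% of gene desert and 22.5% of nearer intergenic regions, CAGCTG in 21.1% and 16.7%, and the MEIS letters TGACAG, also chosen afterwards, in 23.3% and 18.6%. The NFI full site was found in 1.42% and 1.23% there and the ZIC letters in 11.8% and 10.2%, while the RFX X-box ran the other way, as given above.

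**Figure D3:**
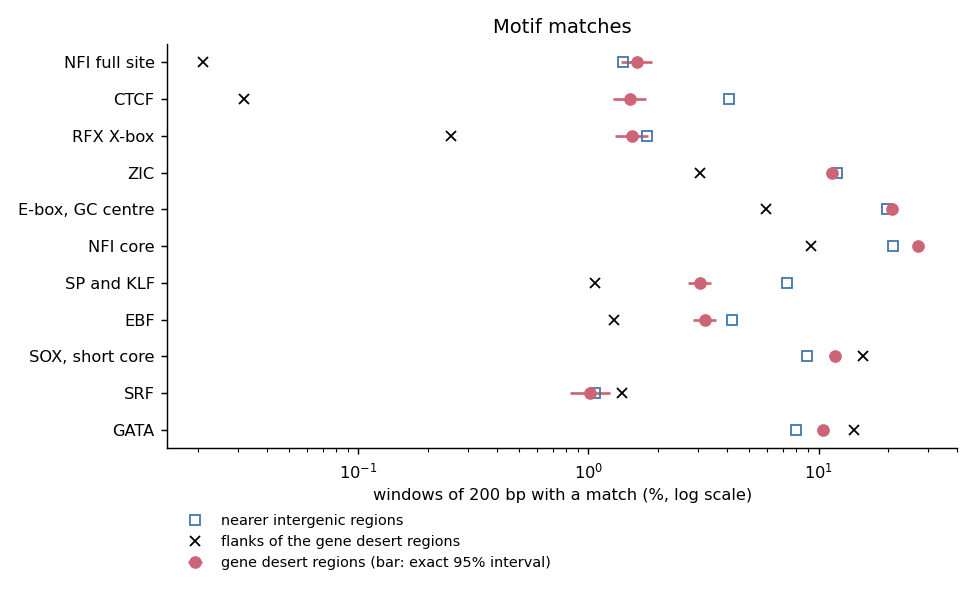
Share of 200 bp windows with a match (%, log scale) in gene desert regions (filled circles, bars are exact 95% intervals), nearer intergenic regions (open squares) and flanks of the gene desert regions (crosses), for the 8 motifs with the highest and the 3 with the lowest share relative to flanks. CTCF was found in 1.51% of gene desert and 4.09% of nearer intergenic regions, while the NFI core was found in 27.1% and 21.05%.

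The 10 highest-ranked gene desert regions had scores from 128 to 143 in replicate 1 and from 108 to 136 in replicate 2, and hotspots at the cap in both. Their GC content lay between 48% and 64%, above the median gene desert region in each case. The first, 237 kb from the start of Myt1l, a zinc-finger gene of neurons, had scores of 143 and 136 and a GC content of 57.5%. The second, on the side of Pcmtd1, had scores of 139 and 126 and lay 0.087 kb from the start of the lincRNA gene Gm26901. The third and the fourth, nearest to the flippase gene Atp10a and the metalloproteinase gene Adamts6, had scores of 133 and 130, and of 132 and 118. The fifth was nearest to Inhba, an activin subunit gene, with scores of 129 and 119, and the sixth to the zinc-finger gene Zfp608, with 134 and 114. The sixth, on chromosome 18, also held an RFX X-box match. The seventh, nearest to the LIM-domain gene Lpp with scores of 132 and 115, lay 0.134 kb from the start of the lincRNA gene A230028O05Rik. The eighth, nearest to Myo3a with scores of 131 and 112, held the RFX X-box printed above. The ninth was nearest to the kinase gene Camk1g, with 133 and 109, and the last of the 10, with a CTCF match, to the cyclin H gene Ccnh, with 128 and 108.

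The farthest gene desert region lay 2637 kb from the start of Pcdh20, between the protocadherin genes Pcdh20 and Pcdh9 on chromosome 14. It was weak, with scores of 29 and 26 and percentiles of 16.6 and 20.7, and its GC content was 33.5%.

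Gene desert regions were grouped along the sequence, though less closely than nearer regions. Another gene desert region lay within 5 kb of 41.5% of them (95% interval 40.5 to 42.5) and within 20 kb of 67.8% (66.8 to 68.7). Among nearer intergenic regions these shares were 55.03% and 81.4%. The median gap to the nearest other region was 8.50 kb in deserts and 3.87 kb nearer to genes, and nearer intergenic sequence was the more densely occupied. Joined at gaps of up to 20 kb, the gene desert regions formed 5222 chains, of which 3097 held 1 region. Chains of 5 or more numbered 291 and held 1861 regions (19.4%).

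The largest chains held 17 regions each. One ran over 59.9 kb at chr14:24818236-24878145, between the ribosomal protein gene Rps24 and the transcriptional coregulator gene Zmiz1, with median scores of 64 and 44 and highest scores of 121 and 104. The other ran over 115.3 kb at chr5:111935496-112050785, beside the crystallin gene Cryba4, with median scores of 72 and 52. Both medians lay above the median of all gene desert regions in each replicate. Chains of 16 regions followed on the Zfp608 and the Gramd3 side of 1 desert, with median scores of 49 and 38, and of 45 and 34.5.

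Desert stretches, each the run of desert sequence between 2 neighbouring protein-coding genes, differed widely. There were 763 of 100 kb or more, of which 630 were on autosomes. The autosomal stretches had a median of 21.1 gene desert regions per Mb (quartiles 11.5 and 38.0). The stretch between Zfp608 and Gramd3 held 89 regions in 0.978 Mb of desert sequence. It was followed by the stretch between Celf4 and Pik3c3 and that between Auts2 and Castor2, with 66 regions each. Sel1l to Flrt2 held 62, Rps24 to Zmiz1 and Got2 to Cdh8 held 52 each, and Mki67 to Mgmt held 49. These stretches differed in length: the 66 regions beside Celf4, a neuronal RNA-binding protein gene, lay in 3.61 Mb, and the 66 beside Auts2, a neurodevelopmental gene, lay in 1.09 Mb.

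Per Mb, the densest stretch lay between Gm26897 and Cryba4, with 150.6 regions per Mb over 0.113 Mb. Cd83 to Jarid2 held 129.3 per Mb, Eipr1 to Myt1l 124.1, Rps24 to Zmiz1 118.2 and Npvf to Nfe2l3 113.2. These 5 stretches had GC contents from 43.6% to 51.2%. Across the 630 autosomal stretches, density and GC content had a Spearman's rho of 0.646, and density and soft-masked share one of -0.716; both describe stretches of 1 genome. In 4 equal groups of stretches by GC content the density was 12.2, 16.5, 28.1 and 48.0 regions per Mb, from the lowest GC to the highest.

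Desert stretches without any gene desert region were mostly on the sex chromosomes. Of 117 such stretches, 75 were on Y, 20 on X and 22 on autosomes. The longest held 1.99 Mb of desert sequence at chr12:113743909-115847723, between Adam6a and Zfp386, where the immunoglobulin heavy chain variable genes lie; the next 4 were on Y. Of these, the longest ran between Gm21783 and Gm21256 with 1.86 Mb, of which 97.6% was soft-masked.

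By chromosome, autosomes held 20.6 gene desert regions per Mb of desert sequence, from 14.5 on chromosome 6 to 29.6 on chromosome 13. The X chromosome held 190 regions at 5.54 per Mb, and the Y chromosome held 3 regions in 37.6 Mb. The soft-masked share of desert sequence was 40.2% on autosomes, 52.9% on X and 96.9% on Y. The masked share thus moved with these counts. The pool held both sexes, so X and Y were also present in fewer copies per cell than autosomes, on average. The part of masking and of copy number in the counts was not tested. Median scores on X were 44 and 31, against 50 and 34 on autosomes.

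**Figure D4:**
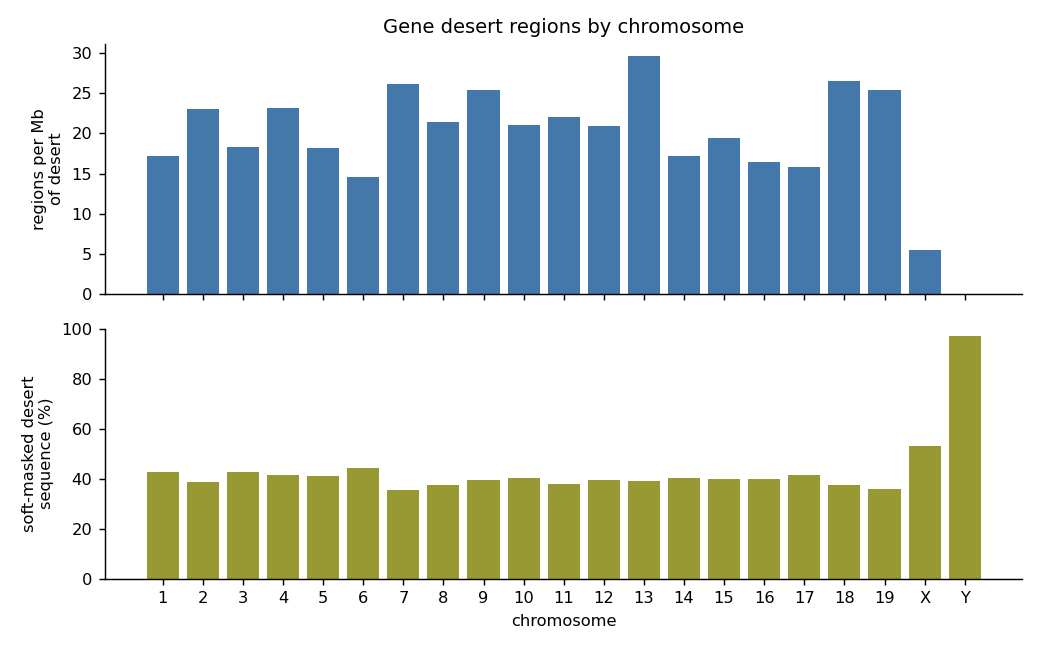
Gene desert regions per Mb of desert sequence (top) and soft-masked share of that sequence in percent (bottom), for each chromosome. Autosomes lie between 14.5 and 29.6 regions per Mb, X is at 5.54, and Y holds 3 regions in 37.6 Mb that are 96.9% soft-masked.

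Each gene desert region was assigned to the protein-coding gene with the nearest start. The 9604 regions were nearest to 1213 genes. A gene was counted as measured where at least 100 kb of desert sequence was nearest to it. Of 1088 measured genes, 922 (84.7%) had at least 1 gene desert region. On autosomes this was so for 875 of 910 genes (96.2%), so having a region did not set a gene apart. Of the 166 measured genes with none, 94 were on Y, 37 on X and 35 on autosomes. By count alone, without regard to the length of desert sequence, 108 genes had 20 or more regions and held 2825 (29.4%). Of these 108, 95 had an open promoter in both replicates. The same held for 746 of all 1088 measured genes and for 715 of the 910 on autosomes.

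Zfp608 was nearest to 78 gene desert regions, from 204 to 703 kb away, in 0.717 Mb of desert, which is 108.9 per Mb. Their median scores were 55.5 and 40.5. Pik3c3, the class III phosphoinositide kinase gene of autophagy, followed with 41 regions in 2.07 Mb, which is 19.8 per Mb. Tbl1xr1, a corepressor subunit gene, had 40, at 31.7 per Mb. The cadherin gene Cdh8, the ubiquitin ligase gene Hace1 and Sel1l, a gene of protein degradation at the endoplasmic reticulum, had 39 each. Their densities were 14.8, 29.5 and 23.1 per Mb, and the median over measured genes on autosomes was 19.8. The proliferation marker gene Mki67 had 37 regions in 0.345 Mb, which is 107.3 per Mb. The latrophilin gene Adgrl2 had 36, the secreted-protein gene Fam19a5 and the neuronal splicing factor gene Nova1 had 35 each, and Gramd3 had 34. Per Mb these were 24.2, 52.7, 20.8 and 71.5.

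These 11 genes had open promoters in both replicates, with scores from 119 to 141 in replicate 1 and from 91 to 128 in replicate 2. The highest promoter scores in replicate 1 were those of Sel1l and Nova1, at 141 each.

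Neural transcription factor genes had dense deserts. Of 121 genes on this list, 45 were measured and all 45 had at least 1 region, as did 922 of all 1088 measured genes. Together the 45 had 33.4 gene desert regions per Mb, with a median of 36.9 per gene. Over all 1088 measured genes the pooled density was 17.3 per Mb and the median 16.0, and 40 of the 45 lay above that median. On autosomes all 42 measured genes of the list had a region, against 875 of 910 for all. The list had 34.6 per Mb there and a median of 37.8, against 19.7 and 19.8 for all 910. The desert sequence of the list, 17.8 Mb for the 45 genes, had a GC content of 39.8%, against 38.4% for all measured genes. The cell adhesion and axon guidance list had 70.4 Mb for 64 genes. Density fell with distance from a protein-coding start, as given above. The part of distance and of GC content in the densities of the lists was not tested. The nuclear receptor gene Nr2f2 had 29 regions, and the homeobox gene Meis1 and the glial and progenitor gene Sox9 had 28 each. Per Mb these were 33.2, 62.6 and 40.3. Nr2f2 had a promoter peak in replicate 1 only, with a score of 82. The lists were chosen with earlier results of these libraries known, so the counts are descriptions.

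Cell adhesion and axon guidance genes had the longest deserts and sparse ones. Of 64 measured genes, 62 had a region, against 922 of all 1088. The pooled density was 11.1 per Mb and the median 10.6, and 17 of the 64 lay above the median of all measured genes. On autosomes 59 of 60 had a region, against 875 of 910 for all. The list had 11.5 per Mb there and a median of 11.3, against 19.7 and 19.8. The 70.4 Mb of desert sequence of the 64 genes had a GC content of 37.1%. The part of distance from genes and of GC content in the lower density was not tested. Cdh8 had 39 regions in 2.64 Mb, the axon guidance gene Flrt2 had 30 in 2.77 Mb, Pcdh20 had 28 in 2.40 Mb and the teneurin gene Tenm3 had 25 in 1.19 Mb. Slitrk4 and Sema3d, a synaptic adhesion and a semaphorin gene, had none in 0.185 and 0.108 Mb (Slitrk4 is on X), though the promoters of both were open in each replicate.

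Of 40 measured synapse, receptor and channel genes, 36 had a region (922 of all 1088 did), with 14.4 per Mb and a median of 16.5. On autosomes 35 of 37 had one, against 875 of 910 for all. The list had 15.2 per Mb there and a median of 19.2, against 19.7 and 19.8 for all 910. Its median was thus near that of the whole set and its pooled density lower. Adgrl2 had 36 regions, its paralogue Adgrl3 and the cerebellin gene Cbln4 had 21 each, and the trafficking gene Nbea had 17. The glutamate receptor gene Gria3 had none in 0.567 Mb and the glycine receptor gene Glra2 none in 0.221 Mb; both are on X, where 37 of 81 measured genes had none. The potassium channel gene Kcnh8, on an autosome, had none in 0.194 Mb.

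Of 19 measured signalling genes, all on autosomes, 15 had a region, a lower share than the 875 of 910 measured genes on autosomes. They had 17.9 per Mb and a median of 17.4, against 19.7 and 19.8 for all 910. The receptor gene Gfra2 had 18 regions, Inhba 17, the neurotrophin receptor gene Ntrk3 12 and the BMP family gene Gdf6 9. The neuregulin gene Nrg3 had none in 0.523 Mb and the mineralocorticoid receptor gene Nr3c2 none in 0.190 Mb, with promoter peaks in both replicates; Fgf10 had none in 0.147 Mb, with a promoter peak in replicate 1 only.

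Genes listed here as regulators and products of other tissues had fewer gene desert regions per Mb than the whole set. On autosomes the list had 16.1 per Mb and a median of 14.9, against 19.7 and 19.8. The quartiles overlapped, at 7.33 and 26.2 for the list and 10.5 and 37.4 for all measured genes on autosomes. Of 20 measured genes on this list, 18 had at least 1 gene desert region (18 of 19 on autosomes, against 875 of 910 for all measured genes), with 15.7 per Mb and a median of 13.6. The T-box gene Tbx3 had 14 regions, Ets1 had 11, and Gata3 and Isl1 had 10 each. Members such as Gata3 and Isl1 are also known from neurons, so the list is not free of neural genes. Gata3 had no promoter peak in either replicate, while its 10 regions had median scores of 62.5 and 39. The collagen gene Col3a1 had none in 0.111 Mb. Of 1514 chemosensory receptor genes only 3 were measured, Olfr1505, Olfr1507 and Olfr161, with 5 regions each.

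**Figure D5:**
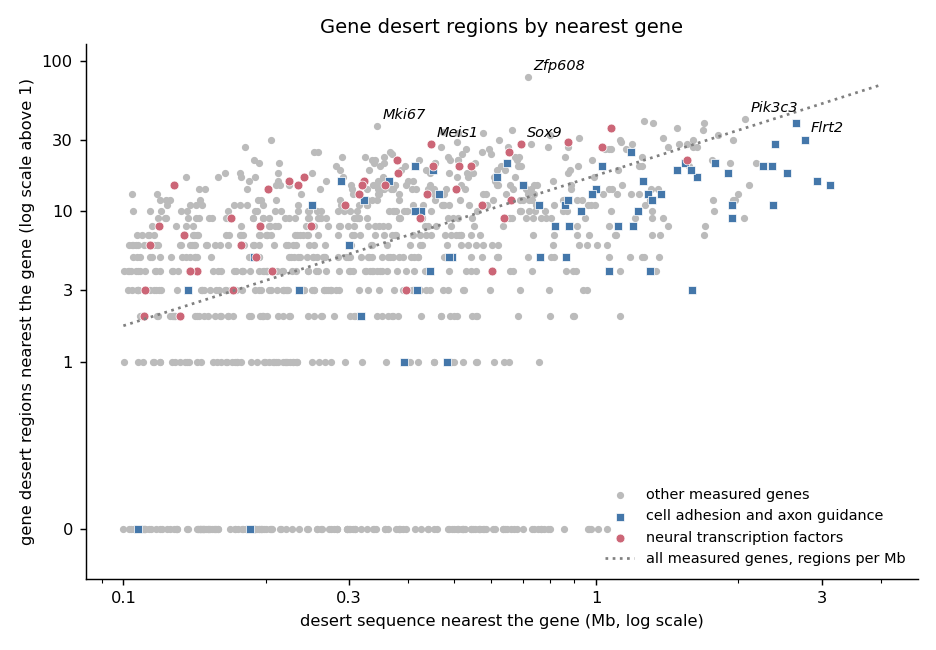
Number of gene desert regions nearest to each of the 1088 measured genes (vertical axis, log scale above 1) against the desert sequence nearest to it (horizontal axis, Mb, log scale); circles in red are neural transcription factors, blue squares are adhesion and guidance genes, and the dotted line is the pooled density of 17.3 per Mb. Of 45 neural transcription factor genes 40 lay above the median density of all genes, and of 64 adhesion and guidance genes 17 did.

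Genes with an open promoter had denser deserts, by a wider margin with the sex chromosomes included than on autosomes. The 746 measured genes whose promoter held a peak of each replicate had 20.1 gene desert regions per Mb and the other 342 had 10.3. On autosomes the values were 20.6 for 715 genes and 16.1 for 195. The quartiles on autosomes overlapped, at 11.7 and 39.0 for genes with an open promoter and 7.01 and 27.9 for those without.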

How the data were processed

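DNase-seq peaks and hotspots were called by the authors in each library alone, on mm10, per the labels; which caller and aligner they used was not given in the sources used here. The deposited peak value is a score, a whole number with no stated scaling, used only for ranking and description. The deposited hotspot value is a −log10 q, capped at 100. Peaks on unplaced scaffolds and the mitochondrial chromosome were left out.

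Peaks of both replicates were merged at 1 bp overlap and placed against GENCODE M21 on GRCm38.p6, whose lengths fit all 21 chromosomes. Distances run from the region's edge to the nearest start of any protein-coding transcript. Promoter regions lie within 500 bp of the start of a transcript of any gene type and are not gene desert regions. Desert sequence was sampled every 100 bp. Python 3.11.15, numpy 2.4.6, pandas 2.3.3, scipy 1.17.1 and samtools 1.23.1 were used. Overlap, merging, the highest value per region and the nearest start were checked on simulated intervals. The motif search and the other steps were not checked in this way. Intervals are exact binomial (95%). With 1 group, no test was made.

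Named genes were the 12 nearest to most regions, those at the 10 highest-ranked regions, and per list of genes up to 4 with the most regions and up to 3 measured genes with none; stretches, regions and motifs were named by like rules. A few items that these rules select are not reported here. Of 495 listed symbols, 494 matched; Nlgn4l did not. The regions, lists and motifs were chosen with earlier results of these data known. Alternatives changed the overlap, score threshold, start sites, distance, chromosomes, windows and replicates.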

Additional observations from a re-analysis of the deposited data

How the results depend on the processing

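No paired analysis was possible because the study holds 1 group of 2 replicates. Of 73 values under an alternative, 29 stayed within a set spread and 44 moved beyond it. The spread was that of the values with 1 replicate left out, which are among the 73. It was 1.5 times for the count and the binomial interval for recovery. For GC content it was 0, so any change counts as moved. It does not measure how the replicates differ over the gene desert regions, where their median percentiles were 57.9 and 41.1. The causes were not tested, except that each alternative takes other regions by its construction. In order, the results are the count, the median of the mean percentile, median GC content (%), CTCF share (%), share within 20 kb of another (%), measured genes with a region (%), and recovery in replicates 1 and 2 (%), which were 9604, 48.8, 46, 1.51, 67.8, 84.7, 43.4 and 76.2. Without replicate 1 these were 12459, 34.0, 45, 1.15, 74.5 and 86.1, and without replicate 2 they were 21976, 33.2, 45, 0.828, 85.1 and 88.2; recovery cannot be computed from 1 replicate. Peaks at or above the median score of each list gave 3763, 72.0, 48, 2.52, 53.5, 70.6, 53.6 and 92.2. Distances over 500 kb gave 2789, 43.5, 44, 54.4 within 20 kb, 81.9 of genes, and recovery of 41.7 and 73.5. Starts of genes of any type gave 703, 44.7, 44.5, 1.85, 56.5, 80.8 and recovery of 42.1 in replicate 1. Hotspots in place of peaks gave a percentile of 59.5, a GC content of 45 and recovery of 44.5 and 79.2, and reciprocal overlap of 50% gave 50.1 and recovery of 39.1 and 68.1. Gene 5′ ends alone gave a percentile of 49.6. The CTCF share was 6.45 with 1 mismatch and 1.13 in windows of 45 to 50% GC, chosen after seeing the data. Joining at 10 kb gave 53.2; autosomes gave 96.2 and genes with 300 kb of desert sequence 88.1 of genes. Without read counts, regions too weak for the shorter list cannot be judged.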
